A study of Mus musculus with 8 samples.

Results

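Keratins were measured in green fluorescent cells sorted from mouse skin as cells of the pigment lineage. The members were all genes whose platform symbol is Krt followed by digits alone, which gave 49 of the 22180 genes with a value. Keratin-associated protein genes and symbols that end in a letter, such as Krt6a, were left out. Krt5 and Krt85 had no probe set with that single symbol and were not analysed here. The only probe set naming Krt5 also names Krt6a.

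The samples were 8 gene arrays in 3 groups. P21_KO held 4 arrays from mice of 21 days with B-raf and 1 other gene both floxed (fl/fl), described as melanocyte stem cells. P21_WT held 2 arrays of melanocyte stem cells from mice of 21 days with both genes intact (+/+), and P4_WT held 2 arrays of melanoblasts, the precursors of pigment cells, from such mice of 4 days. Mice of every group carried the Tyr::Cre transgene, in which a tyrosinase promoter drives Cre recombinase, and the Z/EG reporter, which turns on green fluorescent protein where Cre has acted. The strain background was mixed C57Bl/6 and 129/Sv. Skin was digested to single cells, and cells that were green and lacked the p75 receptor were sorted. The RNA was amplified before labelling. Replicates 2, 3 and 4 of P21_KO carry 1 common number in their descriptions with no word on what it stands for. Whether these arrays came from separate litters is not given, so p-values measure only the spread between these arrays.

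Values are log2 RMA values, and each unit of difference is a doubling. Probe sets differ in brightness, so levels are compared between arrays and not between genes. Arrays of 1 group correlated at 0.954 to 0.974 over all genes. Braf, 1 target of the knockout, had 6.57, 6.49, 6.30 and 5.66 on the P21_KO arrays, 5.99 and 7.20 on the P21_WT arrays, and 5.80 and 6.00 on the P4_WT arrays. Those groups overlap, and whether its probes lie in the floxed exon was not stated. The defining markers of the sorted lineage were present. The mean over 12 melanocyte genes, among them Mitf, Sox10 and Dct, was 6.06 to 7.49 on the P21_KO arrays, 7.79 and 7.85 on the P21_WT arrays, and 9.03 and 9.19 on the P4_WT arrays. Sox10 did not follow that order, at 7.79 to 8.32 on P21_KO, 7.99 and 8.14 on P21_WT, and 7.23 and 7.43 on P4_WT. The other 11 were lower in both P21 groups than in P4_WT by the fitted difference. P4_WT replicate 2 stood apart in 2 other lists. Its mean over 9 endothelial genes was 5.44, against 3.15 to 3.48 on the other arrays, and its mean over 10 macrophage, dendritic and T cell genes was 5.18, against 3.00 to 3.40 on the others. The mean over 6 Schwann cell and glia genes was 7.31 to 7.56 on the P21_KO arrays, 7.26 and 7.56 on the P21_WT arrays, and 6.23 and 6.44 on the P4_WT arrays. Of these 6, limma called 4 higher in both P21 groups against P4_WT (Mbp, Pmp22, Egr2 and Mal). Over all genes, 0.757% were called higher in P21_WT and 3.05% in P21_KO. The part of such cells in the results on keratins was not tested.

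Keratins are the intermediate filament proteins of epithelial cells. A type I keratin pairs with a type II keratin to build the filament, and the pairs mark the layer of the epithelium. Basal cells of the epidermis use Krt5 and Krt14, and the layers above use Krt1 and Krt10. In the hair follicle, the inner root sheath that moulds the growing hair uses Krt25 to Krt28 with Krt71 to Krt74, and the hair shaft has its own type I and type II hair keratins. The inner root sheath is made while a follicle grows and is lost when it rests. Type I genes other than Krt18 lie together on mouse chromosome 11, and type II genes on chromosome 15. Of the 49 keratins here, 25 were on chromosome 11 and 24 on chromosome 15.

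Of these 49 keratins, 24 read above the array's median over all genes on at least 2 arrays. The other keratins were near the floor of the arrays on most or all of them, where RMA compresses differences, and 26 stayed below 4 on every array. Krt14, Krt15, Krt1, Krt10 and Krt17 were bright on all 8 arrays. Krt25, Krt27 and Krt71 were bright on the P4_WT arrays alone.

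**Figure D1:**
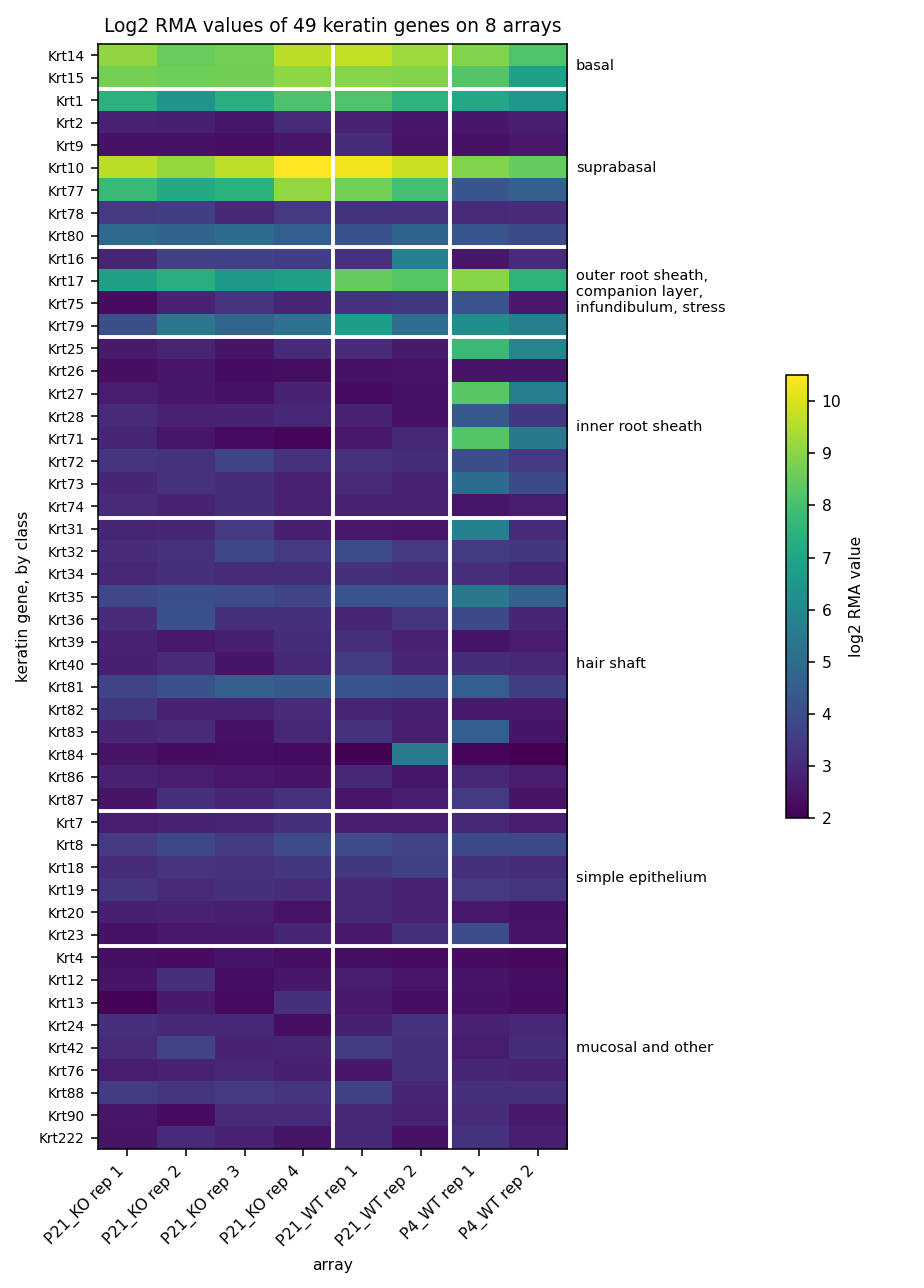
Log2 RMA value (colour) of each of the 49 keratin genes (rows, by class) on each of the 8 arrays (columns, P21_KO, P21_WT and P4_WT). Krt25, Krt27 and Krt71 are bright on the P4_WT arrays alone, Krt77 is bright on the P21 arrays, and Krt84 is bright on P21_WT replicate 2 alone.

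The comparison of P21_WT with P4_WT addresses the step in age from melanoblasts to melanocyte stem cells, and that of P21_KO with P21_WT asks which genes change with the knockout. P21_KO was also set against P4_WT, which differs in age and genotype together. It shares the P4_WT arrays with the first comparison, so the 2 are not independent. In P21_WT cells, 3 keratins of the inner root sheath fell (Krt25, Krt27 and Krt71) and 1 suprabasal keratin rose (Krt77). That is 4 of 49, or 8.16%, where limma called 1.61% of all genes at an adjusted p under 0.05. By direction it called 0.852% of all genes as lower and 0.757% as higher. In P21_KO against P4_WT, 5 keratins fell (the same 3 with Krt73 and the hair shaft gene Krt35) and Krt77 rose. Those 6 are 12.2% of the keratins, against 7.73% of all genes, 4.68% lower and 3.05% higher. Between P21_KO and P21_WT, 0 of 49 keratins passed, and 0% of all genes did. P21_WT and P4_WT did not overlap for 23 keratins, 14 higher and 9 lower, which is 46.9% against 43.5% of all genes (21.4% higher and 22.1% lower). P21_KO and P4_WT did not overlap for 18, 9 higher and 9 lower, which is 36.7% against 29.6% of all genes (14.2% higher and 15.5% lower).

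**Figure D2:**
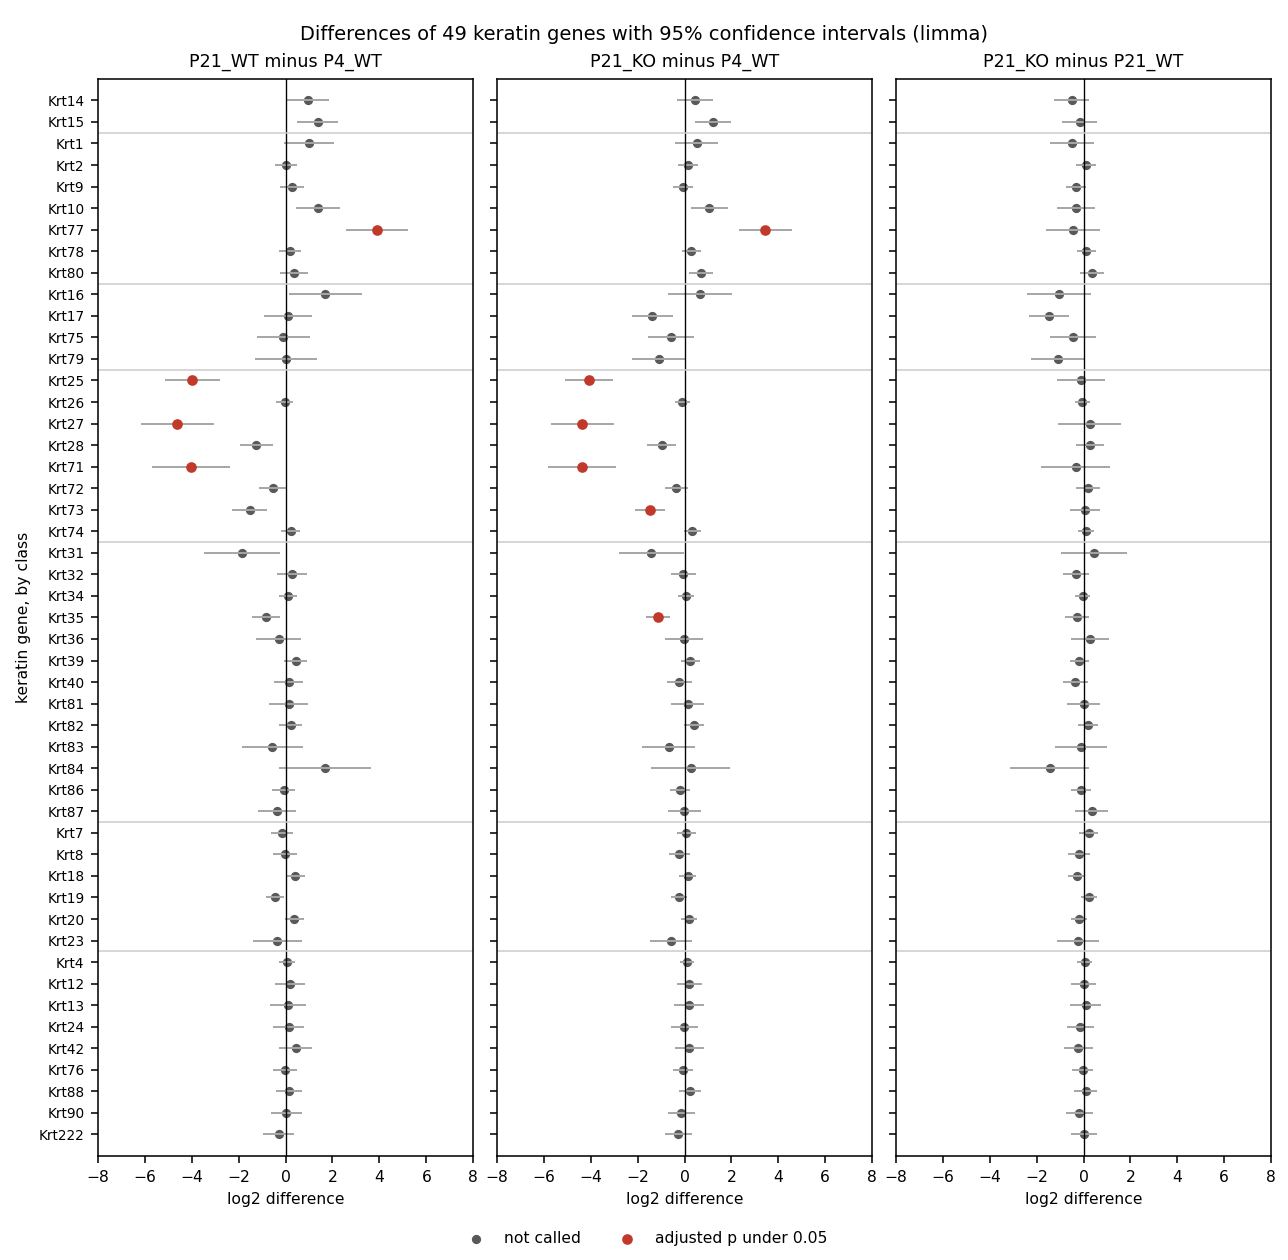
Log2 difference (horizontal axis) of each keratin with its 95% confidence interval (grey line) in P21_WT minus P4_WT, P21_KO minus P4_WT and P21_KO minus P21_WT. Red points had a limma adjusted p under 0.05. Krt25, Krt27 and Krt71 lie near -4 and Krt77 above 3 in both comparisons with P4_WT, and no point is red in the third.

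The inner root sheath class had 8 measured members, and its clearest members were low on all P21 arrays. Krt25, a type I keratin of the sheath, read 2.62, 2.88, 2.48 and 3.05 on the P21_KO arrays, 3.06 and 2.63 on the P21_WT arrays, and 7.75 and 5.88 on the P4_WT arrays. Its P4_WT arrays were both far above the 6 P21 arrays, and P4_WT replicate 1 was the higher of the pair. The gene was 15.7-fold lower in P21_WT, a log2 difference of -3.97 ± 0.51 (SE, limma adjusted p = 0.0103). In P21_KO against P4_WT the difference was -4.06 ± 0.45 (SE, limma adjusted p = 0.00171).

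Krt27, the next sheath gene of type I, read 2.67, 2.56, 2.40 and 2.81 on the P21_KO arrays, 2.28 and 2.42 on the P21_WT arrays, and 8.30 and 5.63 on the P4_WT arrays. Again the P4_WT arrays stood above all others, and they lay 2.67 apart. Its group means were 2.61 ± 0.17 in P21_KO (SD, n = 4), 2.35 ± 0.10 in P21_WT (SD, n = 2) and 6.97 ± 1.89 in P4_WT (SD, n = 2). It was lower by a log2 difference of -4.62 ± 0.68 in P21_WT (SE, limma adjusted p = 0.017) and -4.35 ± 0.59 in P21_KO (SE, limma adjusted p = 0.00421), each against P4_WT.

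Krt71, the type II keratin of the sheath whose mutation gives mice wavy or curly hair, read 2.87, 2.53, 2.26 and 2.15 on the P21_KO arrays, 2.59 and 2.99 on the P21_WT arrays, and 8.21 and 5.42 on the P4_WT arrays. Both P4_WT arrays lay above all P21 arrays, and they were 2.79 apart. Its log2 difference was -4.03 ± 0.73 in P21_WT (SE, limma adjusted p = 0.0386) and -4.37 ± 0.63 in P21_KO (SE, limma adjusted p = 0.00568), each against P4_WT.

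Krt73, a type II keratin of the sheath cuticle, followed the same order at smaller size. It read 2.93, 3.21, 3.07 and 2.83 on the P21_KO arrays, 3.00 and 2.86 on the P21_WT arrays, and 5.02 and 3.91 on the P4_WT arrays. Both P4_WT arrays were above every P21 array. The difference of -1.53 ± 0.32 in P21_WT (SE, limma adjusted p = 0.0636) missed the threshold, and that of -1.46 ± 0.28 in P21_KO against P4_WT passed it (SE, limma adjusted p = 0.0178).

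**Figure D3:**
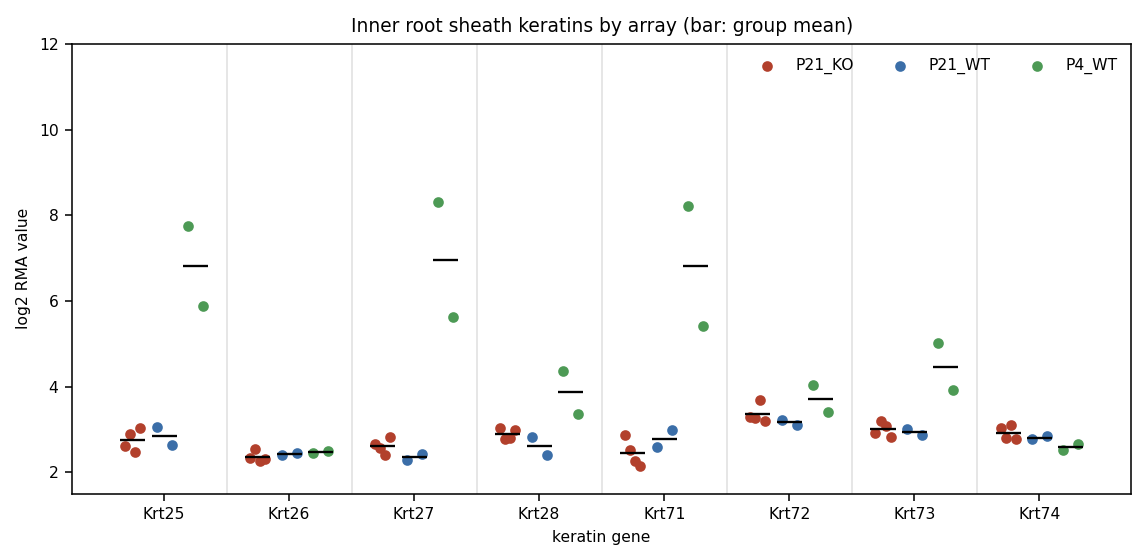
Log2 RMA value of the 8 inner root sheath keratins on each array (points, coloured by group) with the group mean (black bar), for P21_KO, P21_WT and P4_WT from left to right within each gene. Krt25, Krt27, Krt28, Krt71 and Krt73 are higher on both P4_WT arrays than on any P21 array, while Krt26 and Krt74 stay near 2.5 to 3 on all arrays.

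The other members of the class were low or flat. Krt28, a type I sheath keratin, read 3.03, 2.77, 2.81 and 2.99 on the P21_KO arrays, 2.83 and 2.41 on the P21_WT arrays, and 4.37 and 3.37 on the P4_WT arrays. Both P4_WT values were above all P21 values, and the log2 difference was -1.25 ± 0.31 in P21_WT (SE, limma adjusted p = 0.108) and -0.97 ± 0.27 in P21_KO (SE, limma adjusted p = 0.0701), each against P4_WT. Without P4_WT replicate 1 these were -0.75 and -0.47. Without P4_WT replicate 2 they were -1.75 and -1.47. Krt72, a type II sheath keratin, read 3.30, 3.26, 3.69 and 3.20 on the P21_KO arrays, 3.22 and 3.12 on the P21_WT arrays, and 4.03 and 3.41 on the P4_WT arrays, with P21_KO replicate 3 inside the P4_WT range. Krt26, a type I sheath keratin, read 2.34, 2.54, 2.27 and 2.31 on the P21_KO arrays, 2.40 and 2.45 on the P21_WT arrays, and 2.45 and 2.49 on the P4_WT arrays, which is flat and near the floor. Krt74, listed as a transcribed pseudogene in the mouse gene table, read 3.03, 2.81, 3.10 and 2.79 on the P21_KO arrays, 2.78 and 2.85 on the P21_WT arrays, and 2.52 and 2.67 on the P4_WT arrays, and was low on all arrays. Over the 8 members, the median log2 difference was -1.39 in P21_WT and -1.21 in P21_KO against P4_WT, where the median over all genes was 0.00 and 0.02. In each of these comparisons 7 of the 8 members were lower.

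Gene order in the mouse genome did not separate the members that were high at 4 days from those that were not. On chromosome 11 the order of the keratins ran Krt25, Krt26, Krt27, Krt28 and Krt10. Krt26 stayed between 2.27 and 2.54 on every array, although the neighbours on either side, Krt25 and Krt27, reached 7.75 and 8.30. On chromosome 15 the order ran Krt71, Krt74, Krt72, Krt73, Krt2, Krt1 and Krt77, so the genes called lower and the gene called higher lie a few genes apart.

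These calls differed in how far they rested on single arrays. P4_WT replicate 1 was the higher P4_WT array for 6 of the 8 sheath members. Without it the P21_WT differences were -3.03 (Krt25), -3.28 (Krt27) and -2.63 (Krt71), while Krt73 lost its call in P21_KO (-0.90). Without P4_WT replicate 2 the P21_WT differences of Krt25, Krt27 and Krt71 were -4.90, -5.95 and -5.42. With P21_WT reduced to a single array, Krt25, Krt27 and Krt71 were not called in P21_WT. Their differences were then -4.18, -4.55 and -3.83 without P21_WT replicate 1, and -3.75, -4.69 and -4.225 without P21_WT replicate 2. A fit that leaves 1 array in a group takes no spread from that group. Its p-value does not measure how far such arrays differ. Krt71 also lost its call in P21_WT without any 1 of the 4 P21_KO arrays (limma adjusted p = 0.0589 to 0.0751). The main fit shares its estimate of spread over all groups, so the P21_KO arrays enter these p-values. For Krt25 the SD was 0.26 in P21_KO and 1.32 in P4_WT. With only the P21_WT and P4_WT arrays in the fit, Krt25, Krt27 and Krt71 were not called, and Krt77 was.

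Some of the genes that work with these keratins also passed the test. Tchh, which encodes trichohyalin, a protein that hardens the inner root sheath, read 2.46, 2.55, 2.55 and 2.34 on the P21_KO arrays, 2.16 and 2.35 on the P21_WT arrays, and 8.13 and 4.50 on the P4_WT arrays. Its 2 P4_WT arrays were the highest, with replicate 1 far above replicate 2, and it fell in P21_KO against P4_WT by 3.84 ± 0.78 log2 units (SE, limma adjusted p = 0.0222). That call was lost without P21_KO replicate 3 (limma adjusted p = 0.0544), and the size was -2.03 without P4_WT replicate 1. Of 22 measured genes of hair shaft and sheath differentiation, limma called 1 lower in P21_WT and 3 lower in P21_KO against P4_WT, and 0 higher in either. Over all genes, 0.852% were called lower in P21_WT and 4.68% in P21_KO. Besides Tchh these were Lef1, a Wnt-responsive transcription factor (-2.43 in P21_WT and -3.41 in P21_KO), and Trps1, a zinc finger transcription factor of the follicle (-1.36 in P21_KO). Lef1 is expressed in melanocyte cells as well. Trps1 was not called without P4_WT replicate 2 (-0.96). The list's median was -0.34 in P21_WT and in P21_KO.

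The 10 hair matrix, sheath and shaft markers other than keratins had a mean of 2.83 to 3.11 on the P21_KO arrays, 3.04 and 3.08 on the P21_WT arrays, and 4.20 and 3.21 on P4_WT replicates 1 and 2. P4_WT replicate 1 was the higher of its pair for 9 of the 10. The part of such cells in the results on sheath keratins was not tested. In a bulk sample, fewer cells of a type and less RNA per cell cannot be told apart.

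The promoters of the 4 sheath keratins called lower in at least 1 comparison with P4_WT, and of Krt77, are shown because these genes were called in opposite directions. Each sequence is the 250 bases before the annotated start in RefSeq's GRCm38.p6 annotation, on the minus strand, written 5′ to 3′. Capitals mark TATAAA, the core of the TATA box, and AGATAA, a form of the site bound by GATA factors. GATA3 is a known regulator of the inner root sheath in mice. Its gene Gata3 read 4.24, 4.32, 4.07 and 4.97 on the P21_KO arrays, 4.53 and 5.05 on the P21_WT arrays, and 4.16 and 3.35 on the P4_WT arrays. It did not follow the order of the sheath keratins, and its difference in P21_WT against P4_WT was 1.03 ± 0.36 (SE, limma adjusted p = 0.264). The regions are chr11:99322952-99323201 for Krt25, chr11:99351119-99351368 for Krt27, chr15:101743098-101743347 for Krt71, chr15:101802361-101802610 for Krt73 and chr15:101869706-101869955 for Krt77.
Krt25: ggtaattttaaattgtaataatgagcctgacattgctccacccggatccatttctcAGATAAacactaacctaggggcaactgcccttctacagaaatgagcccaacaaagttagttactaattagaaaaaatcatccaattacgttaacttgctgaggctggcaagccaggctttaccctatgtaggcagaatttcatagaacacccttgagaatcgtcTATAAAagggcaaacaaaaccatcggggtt
Krt27: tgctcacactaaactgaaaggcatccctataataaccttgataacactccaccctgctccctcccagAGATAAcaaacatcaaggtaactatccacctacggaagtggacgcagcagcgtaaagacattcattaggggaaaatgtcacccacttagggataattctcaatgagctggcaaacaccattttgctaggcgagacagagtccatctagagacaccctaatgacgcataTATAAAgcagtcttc
Krt71: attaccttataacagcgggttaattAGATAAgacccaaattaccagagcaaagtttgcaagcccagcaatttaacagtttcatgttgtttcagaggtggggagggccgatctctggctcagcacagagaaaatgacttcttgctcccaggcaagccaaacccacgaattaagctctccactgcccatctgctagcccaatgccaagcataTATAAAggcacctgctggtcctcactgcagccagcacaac
Krt73: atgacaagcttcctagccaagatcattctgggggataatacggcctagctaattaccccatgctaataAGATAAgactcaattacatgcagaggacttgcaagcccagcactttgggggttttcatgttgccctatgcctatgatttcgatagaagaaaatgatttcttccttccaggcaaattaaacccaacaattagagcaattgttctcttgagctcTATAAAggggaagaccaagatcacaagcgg
Krt77: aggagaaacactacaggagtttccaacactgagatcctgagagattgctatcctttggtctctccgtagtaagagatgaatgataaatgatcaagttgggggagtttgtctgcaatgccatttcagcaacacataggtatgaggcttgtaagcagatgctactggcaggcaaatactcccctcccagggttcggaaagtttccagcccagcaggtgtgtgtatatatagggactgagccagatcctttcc

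The promoters of Krt25, Krt27, Krt71 and Krt73 each held 1 TATAAA and 1 AGATAA on the strand shown, and that of Krt77 held neither on either strand. Only these exact letters were counted. Close variants, such as TATATA and TGATAA in the Krt77 sequence, were not, so Krt77 is not shown to lack either kind of site. The TATAAA began 30, 15, 40 and 30 bases before the start in Krt25, Krt27, Krt71 and Krt73. The AGATAA began 194, 183, 225 and 182 bases before it. The promoter table held 34 of the 49 keratins. On either strand, TATAAA was in 16 of these 34 and in 12.4% of all 32851 promoters of the same length, and AGATAA was in 9 of 34 and in 9.99% of all. Of the 7 sheath keratins in the table, all 7 held TATAAA and 4 held AGATAA, which leaves out Krt26, Krt28 and Krt72. CTTTGA, the LEF and TCF core, was in 8 of the 34 keratins and 13.8% of all promoters. TGANTCA, the AP-1 site, was in 1 of 34 and 6.75%, and GCCNNNGGC, the AP-2 site, in 5 of 34 and 13.7%. In the 4 promoters the matches to TATAAA and AGATAA do not overlap. A match describes the letters in the window and not binding.

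Among the hair shaft keratins, 1 of 13 measured members passed the test, in P21_KO against P4_WT, where 7.73% of all genes did. Of these 13, 7 never reached 4 on any array. The median log2 difference was 0.10 in P21_WT and -0.02 in P21_KO against P4_WT. Krt35, an early type I keratin of the hair matrix and cortex, was the single member called. It read 3.85, 4.03, 3.96 and 3.76 on the P21_KO arrays, 4.17 and 4.22 on the P21_WT arrays, and 5.44 and 4.61 on the P4_WT arrays. The P4_WT arrays were the highest and the P21_KO arrays the lowest, with no overlap. The log2 difference was -1.13 ± 0.22 in P21_KO against P4_WT (SE, limma adjusted p = 0.0203). The call was lost without P4_WT replicate 1, where the difference was -0.71.

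Krt31, a type I keratin of the hair cortex, read 2.88, 2.92, 3.40 and 2.73 on the P21_KO arrays, 2.57 and 2.51 on the P21_WT arrays, and 5.74 and 3.04 on the P4_WT arrays. Only P4_WT replicate 1 was high, and P4_WT replicate 2 lay among the P21_KO arrays. The difference in P21_WT was -1.85 ± 0.70 (SE, limma adjusted p = 0.307), and -0.50 without P4_WT replicate 1. Krt83, a type II cortex keratin, read 2.93, 3.09, 2.40 and 2.94 on the P21_KO arrays, 3.21 and 2.68 on the P21_WT arrays, and 4.53 and 2.50 on the P4_WT arrays, and was also high on P4_WT replicate 1 alone.

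Krt84, a type II hair keratin also found in tongue papillae, was high on 1 array. It read 2.45, 2.30, 2.31 and 2.24 on the P21_KO arrays, 2.06 and 5.47 on the P21_WT arrays, and 2.15 and 1.99 on the P4_WT arrays. P21_WT replicate 2 was 3.01 above the next array, and the other 7 arrays lay between 1.99 and 2.45. The log2 difference in P21_WT against P4_WT was 1.69 ± 0.85 (SE, limma adjusted p = 0.482), and -0.013 without that array. Against P21_WT, the difference in P21_KO was -1.44 ± 0.74 (SE, limma adjusted p = 0.832), and 0.27 without it. With P21_WT replicate 1 left out in its place, the 2 differences were 3.40 and -3.14, but P21_WT was then the 1 high array alone.

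**Figure D4:**
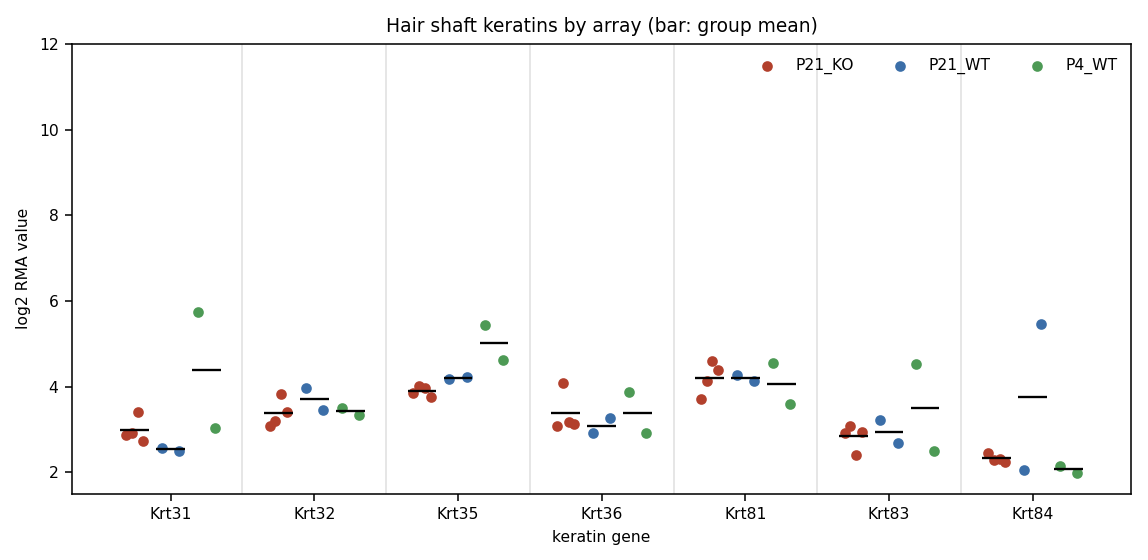
Log2 RMA value of 7 hair shaft keratins on each array (points, coloured by group) with the group mean (black bar), for P21_KO, P21_WT and P4_WT from left to right within each gene. Krt31 and Krt83 are high on P4_WT replicate 1 alone, Krt84 on P21_WT replicate 2 alone and Krt36 on P21_KO replicate 2 and P4_WT replicate 1.

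Of the remaining shaft keratins, none passed the test in any comparison. Krt32, a type I keratin of the hair cuticle, read 3.08, 3.21, 3.84 and 3.40 on the P21_KO arrays, 3.98 and 3.46 on the P21_WT arrays, and 3.51 and 3.35 on the P4_WT arrays. Krt36, a type I hair keratin, read 3.09, 4.10, 3.18 and 3.13 on the P21_KO arrays, 2.91 and 3.28 on the P21_WT arrays, and 3.88 and 2.91 on the P4_WT arrays. P21_KO replicate 2 and P4_WT replicate 1 were its highest arrays, so it did not follow age or genotype. Krt81, a type II cortex keratin, read 3.71, 4.12, 4.60 and 4.39 on the P21_KO arrays, 4.27 and 4.13 on the P21_WT arrays, and 4.55 and 3.59 on the P4_WT arrays, with P4_WT spanning most of the P21_KO range.

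Krt34, a type I cortex keratin, read 2.99, 3.17, 3.06 and 3.12 on the P21_KO arrays, 3.19 and 3.05 on the P21_WT arrays, and 3.14 and 2.89 on the P4_WT arrays. Krt82, a type II keratin of the cuticle, read 3.36, 2.80, 2.84 and 3.08 on the P21_KO arrays, 2.90 and 2.76 on the P21_WT arrays, and 2.60 and 2.62 on the P4_WT arrays. Krt86, a type II cortex keratin, read 2.79, 2.65, 2.59 and 2.43 on the P21_KO arrays, 2.94 and 2.51 on the P21_WT arrays, and 2.96 and 2.64 on the P4_WT arrays. All 3 were near the floor on every array and overlapped between groups, apart from Krt82, whose P21 arrays all lay above both P4_WT arrays by little. Krt39, Krt40 and Krt87, also hair keratins, lay between 2.45 and 3.49.

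Among the suprabasal keratins, all 7 measured members were higher in P21_WT than in P4_WT by the fitted difference, and 1 passed the test. Over all genes, 11143 of 22180 were higher. Krt2, Krt9 and Krt78 stayed below 4 on every array, with differences of only 0.02, 0.26 and 0.18. Krt77, a type II keratin of the upper epidermis in mice, read 7.75, 7.18, 7.45 and 9.13 on the P21_KO arrays, 8.70 and 7.97 on the P21_WT arrays, and 4.26 and 4.60 on the P4_WT arrays. Each P21 array was more than 2 log2 units above each P4_WT array, and P21_KO replicate 4 was the highest. It rose in P21_WT, by a log2 difference of 3.90 ± 0.58 (SE, limma adjusted p = 0.017), and 10.9-fold in P21_KO, at 3.45 ± 0.50 (SE, limma adjusted p = 0.00561), each against P4_WT. The call in P21_KO held in each of the 8 fits that left out 1 array. That in P21_WT was lost without any 1 of the 4 wild-type arrays, with a difference of 3.54 to 4.27.

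Krt10, the type I keratin of the layers above the basal one, read 9.60, 9.17, 9.66 and 10.53 on the P21_KO arrays, 10.33 and 9.82 on the P21_WT arrays, and 8.88 and 8.48 on the P4_WT arrays. Both P4_WT arrays were below all P21 arrays. The difference was 1.39 ± 0.40 in P21_WT (SE, limma adjusted p = 0.17) and 1.06 ± 0.35 in P21_KO against P4_WT (SE, limma adjusted p = 0.12). Krt1, its type II partner, read 7.44, 6.51, 7.32 and 8.08 on the P21_KO arrays, 8.15 and 7.51 on the P21_WT arrays, and 7.11 and 6.53 on the P4_WT arrays, with P21_KO replicate 2 below both P4_WT arrays. The P21_WT difference of Krt1 was 1.01 ± 0.46 (SE, limma adjusted p = 0.425).

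Krt2, a type II keratin of the outer epidermis, read 2.80, 2.73, 2.51 and 3.04 on the P21_KO arrays, 2.80 and 2.51 on the P21_WT arrays, and 2.55 and 2.72 on the P4_WT arrays, which is low and flat. Krt9, Krt78 and Krt80 lay between 2.33 and 4.99. The class median was 0.34 in P21_WT and 0.52 in P21_KO against P4_WT.

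The basal keratins were bright on all arrays. Krt14, the type I keratin of the basal layer, read 9.11, 8.53, 8.70 and 9.60 on the P21_KO arrays, 9.71 and 9.27 on the P21_WT arrays, and 8.89 and 8.17 on the P4_WT arrays. Krt15, a type I keratin of basal cells and of the hair follicle bulge, where melanocyte stem cells lie, read 8.71, 8.63, 8.67 and 9.05 on the P21_KO arrays, 8.95 and 8.90 on the P21_WT arrays, and 8.23 and 6.87 on the P4_WT arrays. P4_WT replicate 2 was the lowest array for both genes. The P21_WT difference was 0.96 ± 0.38 for Krt14 (SE, limma adjusted p = 0.343) and 1.38 ± 0.38 for Krt15 (SE, limma adjusted p = 0.149). In P21_KO, Krt15 was at 1.21 ± 0.33 against P4_WT (SE, limma adjusted p = 0.0648). Without P4_WT replicate 1 the Krt15 differences were 2.05 in P21_WT and 1.89 in P21_KO, each against P4_WT. Without P4_WT replicate 2 the Krt15 differences were 0.70 and 0.54, and that of Krt14 in P21_WT was 0.60.

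**Figure D5:**
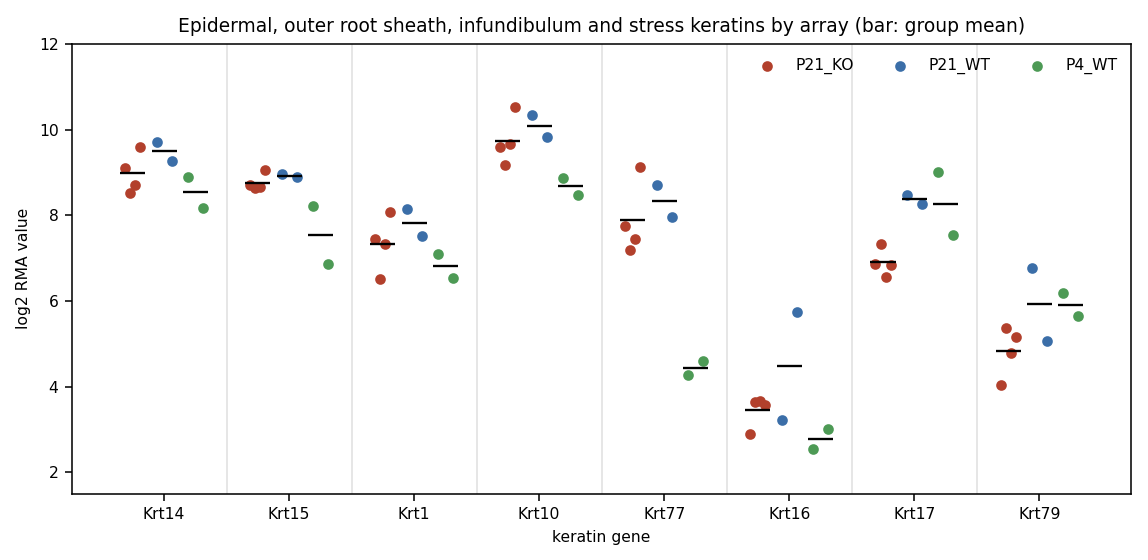
Log2 RMA value of 8 epidermal, outer root sheath, infundibulum and stress keratins on each array (points, coloured by group) with the group mean (black bar), for P21_KO, P21_WT and P4_WT from left to right within each gene. Krt77 separates the P21 arrays from the P4_WT arrays, Krt17 is lower on the 4 P21_KO arrays than on the P21_WT arrays, and Krt16 is high on P21_WT replicate 2 alone.

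Other keratinocyte genes were also on these arrays. The mean over 9 basal keratinocyte markers, with no keratin among them, was 6.00 to 6.23 on the P21_KO arrays, 6.32 and 6.48 on the P21_WT arrays, and 5.55 and 6.05 on the P4_WT arrays. Over 8 suprabasal markers the mean was 4.55 to 5.84 on the P21_KO arrays, 4.83 and 5.16 on the P21_WT arrays, and 4.43 and 5.05 on the P4_WT arrays. P21_KO replicate 4, which had the highest values of Krt10 and Krt77, also had the highest mean of suprabasal markers (5.84) and the lowest mean of melanocyte genes (6.06). Among the 9 basal markers, Cdh3 had the largest difference in P21_KO against P21_WT, at -1.57 ± 0.66 (SE, limma adjusted p = 0.757). The rest ran from -0.57 to 0.49. The part of keratinocytes in the results on epidermal keratins was not tested.

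Of 20 genes of epidermal differentiation, limma called 1 higher in P21_WT, and 3 higher and 1 lower in P21_KO, against P4_WT. Over all genes, 0.757% were called higher in P21_WT, and 3.05% higher and 4.68% lower in P21_KO. Lgals3, a galectin gene, was higher in both (1.45 and 1.01). Klf4, a transcription factor of the barrier, and Krtdap, a keratinocyte differentiation gene, were higher in P21_KO (1.34 and 1.44), and Flg, the filaggrin gene, was lower there (-1.60). Of 22 genes of desmosomes, hemidesmosomes and plakins, the structures that anchor keratin filaments, 2 were called higher in P21_WT and 4 in P21_KO, and 0 lower, where 0.757% and 3.05% of all genes were called higher. Col17a1, a hemidesmosome collagen gene, was higher by 1.55 ± 0.20 in P21_WT (SE, limma adjusted p = 0.0104) and 1.41 ± 0.18 in P21_KO (SE, limma adjusted p = 0.00285). Itgb4, the integrin beta 4 gene, was higher by 1.11 and 1.60, and the linker gene Plec and the anchor gene Lad1 were higher in P21_KO (1.09 and 0.69). In P21_KO the calls of Col17a1 and Itgb4 held in each of the 8 fits without 1 array. Those of Plec, Klf4, Krtdap, Lgals3, Flg and Lad1 held in 7, 6, 5, 2, 1 and 1 of the 8. In P21_WT they held in 7 for Col17a1, 2 for Lgals3 and 0 for Itgb4. In P21_WT the list medians were -0.03 for epidermal differentiation and 0.71 for the anchoring genes.

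The keratins of the outer root sheath, companion layer, infundibulum and stress had a median of -1.06 over 4 members in P21_KO against P21_WT, where the median of all genes was 0.01. None of the 4 passed the test. Krt17, a type I keratin of the outer root sheath that is also induced by injury, read 6.87, 7.34, 6.55 and 6.83 on the P21_KO arrays, 8.48 and 8.26 on the P21_WT arrays, and 9.002 and 7.53 on the P4_WT arrays. All 4 P21_KO arrays were below both P21_WT arrays and both P4_WT arrays. The difference in P21_KO was -1.47 ± 0.38 against P21_WT (SE, limma adjusted p = 0.565) and -1.37 ± 0.38 against P4_WT (SE, limma adjusted p = 0.0704). The difference against P4_WT was -0.63 without P4_WT replicate 1 and -2.10 without P4_WT replicate 2.

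Krt79, a type II keratin of the hair canal and sebaceous duct, read 4.05, 5.38, 4.78 and 5.16 on the P21_KO arrays, 6.77 and 5.08 on the P21_WT arrays, and 6.19 and 5.64 on the P4_WT arrays. P21_WT replicates differed by more than the groups did, and the difference of -1.08 ± 0.50 in P21_KO against P21_WT (SE, limma adjusted p = 0.786) shrank to -0.23 without P21_WT replicate 1. Krt75, the type II keratin of the companion layer, read 2.29, 2.86, 3.31 and 2.88 on the P21_KO arrays, 3.21 and 3.39 on the P21_WT arrays, and 4.21 and 2.58 on the P4_WT arrays, with P4_WT replicate 1 the highest.

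Krt16, a type I keratin of stressed and growing keratinocytes, read 2.89, 3.64, 3.68 and 3.57 on the P21_KO arrays, 3.22 and 5.75 on the P21_WT arrays, and 2.55 and 3.01 on the P4_WT arrays. P21_WT replicate 2 was 2.07 above the next array, the same array that was high in Krt84. The difference in P21_WT against P4_WT was 1.70 ± 0.69 (SE, limma adjusted p = 0.344), and 0.44 without that array. Against P21_WT, the difference in P21_KO was -1.04 ± 0.59 (SE, limma adjusted p = 0.861), and 0.23 without it.

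Simple epithelial keratins were dim. Krt8, the type II keratin of simple epithelia, read 3.42, 3.84, 3.44 and 3.93 on the P21_KO arrays, 3.99 and 3.71 on the P21_WT arrays, and 3.91 and 3.87 on the P4_WT arrays. Its type I partner Krt18 read 3.07, 3.30, 3.21 and 3.38 on the P21_KO arrays, 3.38 and 3.67 on the P21_WT arrays, and 3.19 and 3.03 on the P4_WT arrays. Krt8 overlapped between P21_WT and P4_WT, and both P21_WT arrays of Krt18 were above both P4_WT arrays. Krt18 was not called (limma adjusted p = 0.395 in P21_WT against P4_WT). Its second, dimmer probe set overlapped between P21_WT and P4_WT. Krt7, a type II keratin of ducts, read 2.72, 2.83, 2.88 and 3.18 on the P21_KO arrays, 2.70 and 2.65 on the P21_WT arrays, and 2.99 and 2.65 on the P4_WT arrays. Krt19, a type I keratin of ducts and of bulge cells, read 3.28, 3.05, 3.17 and 3.08 on the P21_KO arrays, 2.98 and 2.83 on the P21_WT arrays, and 3.45 and 3.29 on the P4_WT arrays, so that both P21_WT arrays were below all others. Its P21_WT difference had a limma adjusted p of 0.274. Krt20 and Krt23 lay between 2.41 and 4.00, with Krt23 highest on P4_WT replicate 1. The 9 mucosal and other keratins (Krt4, Krt12, Krt13, Krt24, Krt42, Krt76, Krt88, Krt90 and Krt222) lay between 2.09 and 3.70 on all arrays, and 0 were called in any comparison.

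Between P21_KO and P21_WT, the fitted differences of the 49 keratins ran from -1.47 to 0.44. At an unadjusted p under 0.05 limma gave 1 keratin, Krt17, lower in P21_KO. It is 2.04% of the keratins, against 6.52% of all genes (2.84% higher and 3.69% lower). The groups did not overlap for 6 keratins, or 12.2%, against 15.4% of all genes (7.75% higher and 7.64% lower). Krt17, Krt35 and Krt18 were lower on every P21_KO array and Krt31, Krt7 and Krt19 were higher. For Krt18 the closest values were nearly equal, 3.3812 on P21_KO replicate 4 and 3.3816 on P21_WT replicate 1. A second Krt18 probe set overlapped between these groups. The 95% interval of the log2 difference of Krt25 was -1.11 to 0.93. That of Krt27 was -1.09 to 1.61, and that of Krt71 was -1.79 to 1.11. Krt77 had -1.60 to 0.69. Without P21_WT replicate 1 the difference of Krt84 was -3.14, but P21_WT then held only replicate 2, the array high in that gene.

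For 8 of the 49 keratins, 1 array was at least 1 log2 unit above all others, as it was for 2.55% of all genes. On P4_WT replicate 1 these keratins were Krt25, Krt27, Krt71, Krt73, Krt31 and Krt83, and on P21_WT replicate 2 they were Krt84 and Krt16. Krt25, Krt27, Krt71 and Krt73 were above every P21 array on P4_WT replicate 2 as well. Over all genes, P4_WT replicate 1 was such an array for 0.676% and P21_WT replicate 2 for 0.144%. P4_WT replicate 2 was such an array for 0.762% of all genes and for 0 keratins. No P21_KO array and not P21_WT replicate 1 held any. P4_WT replicate 1 was the highest of the 8 arrays for 17 keratins and P4_WT replicate 2 for 0.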

How the data were processed

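Values were deposited as log2 of the array signal. The submitters' processing notes name RMA and Affymetrix Expression Console, without versions. The values ran from 0.913 to 12.2. Of 41345 rows, 23521 had 1 gene symbol in the platform annotation, 1814 had several and 16010 were unnamed here. For genes with several rows the row with the highest mean was kept, which left 22180 genes. Names and chromosomes came from the GRCm38.p6 gene table.

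All 8 arrays entered 1 linear model of the 3 groups (limma 3.58.1 under R 4.3.3, functions lmFit and eBayes), which left 5 residual degrees of freedom. P-values are two-sided and adjusted by Benjamini-Hochberg across the 22180 genes, with calls made below 0.05. Fold changes are 2 to the power of log2 differences. The number of arrays limits the precision. The fit was tested on simulated data. Members, classes, lists and motifs were chosen with earlier results of these data known. Every measured keratin is accounted for. Values on all arrays are given for called and for preset keratins, and differences mainly for those called or at least 0.9 in size. Partner lists are given by counts with at most their first 4 called members. Gata3, which was not called, is given outside that rule beside the AGATAA site. The other floxed gene is not reported here.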

Additional observations from a re-analysis of the deposited data

Results flagged for a closer look

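In the 4 P21_KO arrays, 2 of the 49 keratins had 1 array far from the other 3 by Dixon's criterion. Krt16 was 2.89 on P21_KO replicate 1, below 3.57 to 3.68 on the others. Krt36 was 4.10 on P21_KO replicate 2, above 3.09 to 3.18 on the others. Chance flags about 1 in 20 groups, or 5%, so 2 of 49 is near that rate.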

How the results depend on the processing

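The count of keratins called in P21_WT against P4_WT was 4, with 0 to 7 when 1 array was left out, 1 with only the arrays of those 2 groups and 1 with a replicate block. In P21_KO against P4_WT it was 6, with 5 to 11 without 1 array and 2 with the replicate block. In P21_KO against P21_WT it was 0, with 0 to 1 without 1 array. The replicate block used replicates 1 and 2 of each group, and Krt77 kept its call with it in both comparisons with P4_WT. With the block, Krt25, Krt27 and Krt71 were not called in P21_WT, and Krt25 was the only other keratin called in P21_KO. Arrays of different groups with the same replicate number had deviations from the group means that correlated at -0.0372 to 0.0057. That correlation was not taken between the P21_KO arrays that carry a common number in their descriptions. What else the arrays share was not tested. The other settings kept the counts within 1.5 times: moderated trend, array weights, cyclic loess, median centring, dim genes left out, other uses of probe sets, the label number as a random block and an adjusted p under 0.10.

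The inner root sheath median ranged from -1.91 to -0.87 without 1 array in P21_WT against P4_WT, and from -1.74 to -0.69 in P21_KO against P4_WT. With dim genes left out, which drops members, it was -3.97 and -4.06. The suprabasal median in P21_WT ranged from 0.34 to 0.65 and was 1.01 without dim genes. It ranged from 0.28 to 0.81 in P21_KO against P4_WT and from -0.59 to -0.0063 in P21_KO against P21_WT. The hair shaft median ranged from -0.23 to 0.22 in P21_WT, with -0.30 without dim genes, and from -0.34 to 0.19 in P21_KO against P4_WT. Among the keratin differences called or at least 0.9 in size, 3 changed sign without P21_WT replicate 2: Krt84 to -0.013 in P21_WT against P4_WT and 0.27 in P21_KO against P21_WT, and Krt16 to 0.23 in P21_KO against P21_WT. Without P21_WT replicate 1 these were 3.40, -3.14 and -2.30. Of 547 alternative values for single keratins, 498 kept direction and side of the threshold. Many of these differences were not called in the main fit, so keeping their side means staying uncalled. Of those called in P21_WT against P4_WT, Krt25, Krt27, Krt71 and Krt77 kept theirs in 15, 15, 11 and 15 of 19. Causes were not tested. Groups of 2 arrays and values near the floor limit these sizes.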

Other observations

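Keratin probe sets outside the naming rule gave these values. The probe set annotated to both Krt5, the type II keratin of the basal layer, and Krt6a read 8.44, 7.37, 7.95 and 9.01 on the P21_KO arrays, 9.02 and 8.59 on the P21_WT arrays, and 8.66 and 7.57 on the P4_WT arrays. These groups overlapped. Krt6a alone, a type II keratin of the companion layer and of wounds, read 2.92, 2.93, 3.18 and 3.54 on the P21_KO arrays, 5.13 and 4.01 on the P21_WT arrays, and 4.16 and 3.39 on the P4_WT arrays. Both P21_WT values were above all 4 P21_KO values. Krt33a, a hair cortex keratin, was at 3.85 on P4_WT replicate 1, and between 2.06 and 3.09 on the other arrays. Krt18 had a second probe set, left out because its mean was lower. It read 2.86, 2.86, 2.43 and 2.55 on the P21_KO arrays, 3.22 and 2.68 on P21_WT, and 2.51 and 2.77 on P4_WT. Those groups overlapped. No test result is given here for the probe sets named above.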
